A study of Homo sapiens with 3 samples.

Results

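Vimentin and 8 further genes of the mesenchymal cell surface, caveolae and extracellular matrix were followed in cells labelled KYSE140, a line from a human squamous carcinoma of the oesophagus. The genes were VIM, EFEMP1, MFAP5, EMP3 and CAVIN3, chosen by their measured intensities, which were higher in 1 cisplatin array, B2, than in the other arrays, and CAV1, CAV2, THY1 and FN1, added as mesenchymal comparators. They are 9 of 19775 genes with a probe set that carries a single gene symbol, and they hold 25 of 41091 such probe sets. RNA was measured on 3 Affymetrix arrays: cisplatin B1 and cisplatin B2, from cells given cisplatin at a labelled 10 mM for 12 h, and 1 array of untreated cells. All cells grew in RPMI medium with serum and antibiotics. Cultured cells are usually given micromolar cisplatin, so the labelled unit is in doubt. The labels do not give the cultures behind B1 and B2, and the untreated group had no replicate. They give B1 and B2 the same line and treatment, and whether B2 is that line and had that treatment was not tested.

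Vimentin is the intermediate filament protein of mesenchymal cells, and carcinoma cells that take on mesenchymal features often gain it while they lose epithelial junctions. Such cells also commonly make fibronectin, the matrix glycoprotein that integrins bind. Elastic fibres outside the cell are built on microfibrils, to which fibulins and microfibril-associated proteins bind. Caveolae are small pits of the plasma membrane, whose coat is made of caveolins and cavins.

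Array B2 stood apart from the others over the whole table. Log2 differences had an SD across genes of 0.60 for B2 minus untreated and 0.56 for B2 minus B1, but 0.33 for B1 minus untreated. The median log2 difference over all genes was 0.05 for B2 minus untreated, 0.03 for B1 minus untreated and 0.01 for B2 minus B1. Each result below is therefore given for B2 and for B1 on its own. Intensities are the deposited values on a linear scale, without detection calls. The median intensity of all probe sets was 35.6 in B2, 35.9 in B1 and 34.8 in the untreated array, so values near or below 35 cannot be told from an undetected transcript. What sets B2 apart was not tested, and in RNA of bulk cells more cells of a kind and more RNA per cell cannot be told apart.

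VIM had an intensity of 565 in B2, against 97.5 in B1 and 78.8 in the untreated array. This is 7.18-fold above untreated and 5.80-fold above B1, whereas B1 was 1.24-fold above untreated. The value comes from the brighter, by mean log2 value over the arrays, of 2 VIM probe sets. The other read 4.77 in B2, 3.95 in B1 and 4.81 in the untreated array, and so was dim everywhere and did not follow the first.

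Of the 5 higher genes, the matrix genes EFEMP1 and MFAP5 had the largest differences. EFEMP1, which encodes the secreted fibulin-3, read 1296 in B2, against 147 in B1 and 127 in the untreated array, 10.2-fold above untreated. A second EFEMP1 probe set gave 197 in B2, 20.8 in B1 and 21.6 in the untreated array, with both lower readings below the array medians, and another, dim one gave 19.8 in B2, 14.4 in B1 and 14.3 in the untreated array. Fibulin-3 is a glycoprotein of basement membranes and elastic tissue.

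MFAP5, the gene of the microfibril-associated protein MAGP-2, read 767 in B2, against 25.8 in B1 and 26.4 in the untreated array, 29.1-fold above untreated. Among all 19775 genes it ranked 1 by how far B2 lay above the nearer of the other arrays, and EFEMP1 ranked 3. Both genes were chosen as higher in B2, so these ranks follow from the choice and are no support for it. The other MFAP5 probe sets read 85.7 and 98.7 in B2, against 3.85 and 12.9 in B1 and 5.40 and 13.2 in the untreated array. All 3 probe sets put B2 highest. The baselines were below the array medians, so the size of the ratio rests on dim values.

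EMP3, a tetraspan membrane protein of the PMP22 family, read 607 in B2, against 100.3 in B1 and 94.1 in the untreated array, 6.45-fold above untreated. CAVIN3, a cavin of the caveolar coat also known as PRKCDBP, read 320.4 in B2, against 44.7 in B1 and 41.7 in the untreated array, 7.68-fold above untreated. Each has a single probe set, so neither has a second reading. VIM, EMP3 and CAVIN3, likewise chosen as higher in B2, ranked 14, 11 and 8 of all genes by the same distance of B2 above the nearer array.

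**Figure D1:**
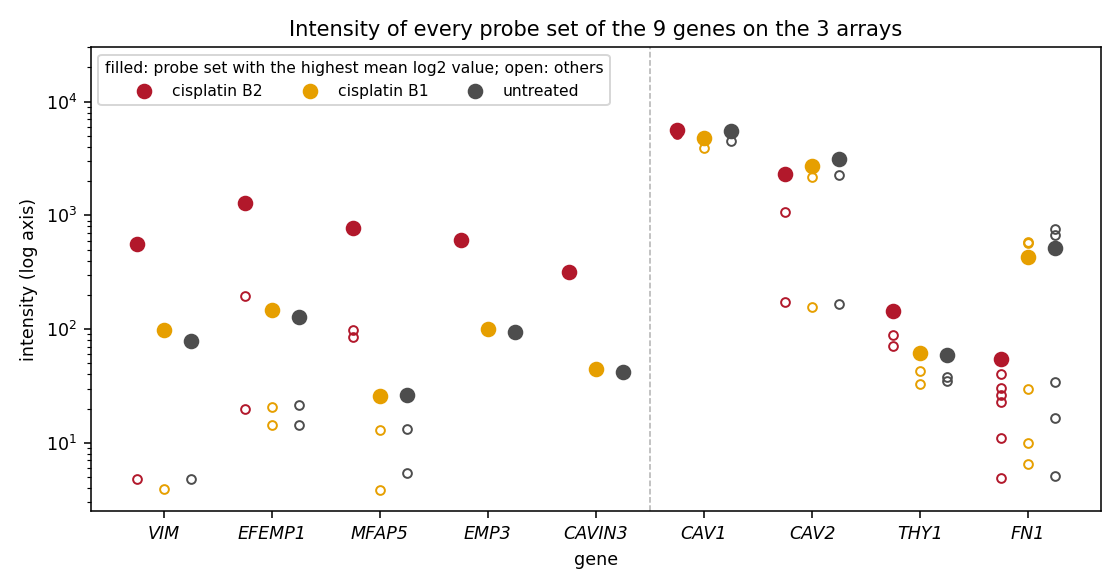
Intensity (log axis) of all 25 probe sets of the 9 genes on cisplatin B2 (red), cisplatin B1 (orange) and untreated (grey) arrays, 1 array each. Filled points are the brightest probe set of the gene by mean log2 value and open points its other probe sets. The 5 genes left of the dashed line have their filled B2 point above the other arrays, such as 767 in B2 against 25.8 in B1 and 26.4 in the untreated array for MFAP5, while CAV1 lies between 4813 and 5675 and FN1 is lowest in B2.

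Of the comparators, THY1 had the same pattern at a smaller size, and the others did not share it. CAV1, the main structural protein of caveolae, read 5675 in B2, 4813 in B1 and 5572 in the untreated array, and its second probe set read 5190 in B2, 3883 in B1 and 4543 in the untreated array. The log2 difference of the brighter probe set was 0.03 for B2 minus untreated and -0.21 for B1 minus untreated. With quantile normalization (-0.013) and with median centring (-0.0074) the B2 difference took the opposite sign, so no direction can be given for it.

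CAV2, which assembles with caveolin-1, read 2293 in B2, 2709 in B1 and 3160 in the untreated array. Its probe sets disagreed: another bright one read 1078 in B2, 2185 in B1 and 2283 in the untreated array, a log2 difference of -1.08 from untreated, while the dimmest read 174 in B2, 156 in B1 and 166 in the untreated array, a difference of 0.08. CAV2 and CAV1 are neighbours on chromosome 7, with 0 protein-coding genes between them. Of the caveolar coat genes followed, CAVIN3 was therefore higher in B2 while both caveolins were within 1.5-fold of untreated by their brightest probe set.

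THY1, a glycosylphosphatidylinositol-anchored surface glycoprotein of fibroblasts and other cells, read 144 in B2, 61.6 in B1 and 59.5 in the untreated array, 2.42-fold above untreated. Its other probe sets read 71.2 and 87.9 in B2, 33.1 and 42.9 in B1, and 38.3 and 34.9 in the untreated array. All 3 were highest in B2, with ratios of 1.86 to 2.52 over untreated.

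FN1, the fibronectin gene, ran the opposite way to VIM. The brightest probe set by mean log2 value read 54.0 in B2, 432 in B1 and 516 in the untreated array, a log2 difference of -3.26 for B2 minus untreated and -0.26 for B1 minus untreated. The probe set with the highest untreated reading gave 22.9 in B2, 578 in B1 and 753 in the untreated array, with the B2 reading below the array median. Of 7 FN1 probe sets, 4 were at least 2-fold lower in B2 than in both other arrays, and in these 4 the B2 reading was at most 54.0. The other 3 read at most 34.4 in any array, and their log2 differences for B2 minus untreated were -0.58, -0.19 and -0.07. A description of all 9 genes as high in B2 is thus not borne out for FN1, CAV1 or CAV2.

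**Figure D2:**
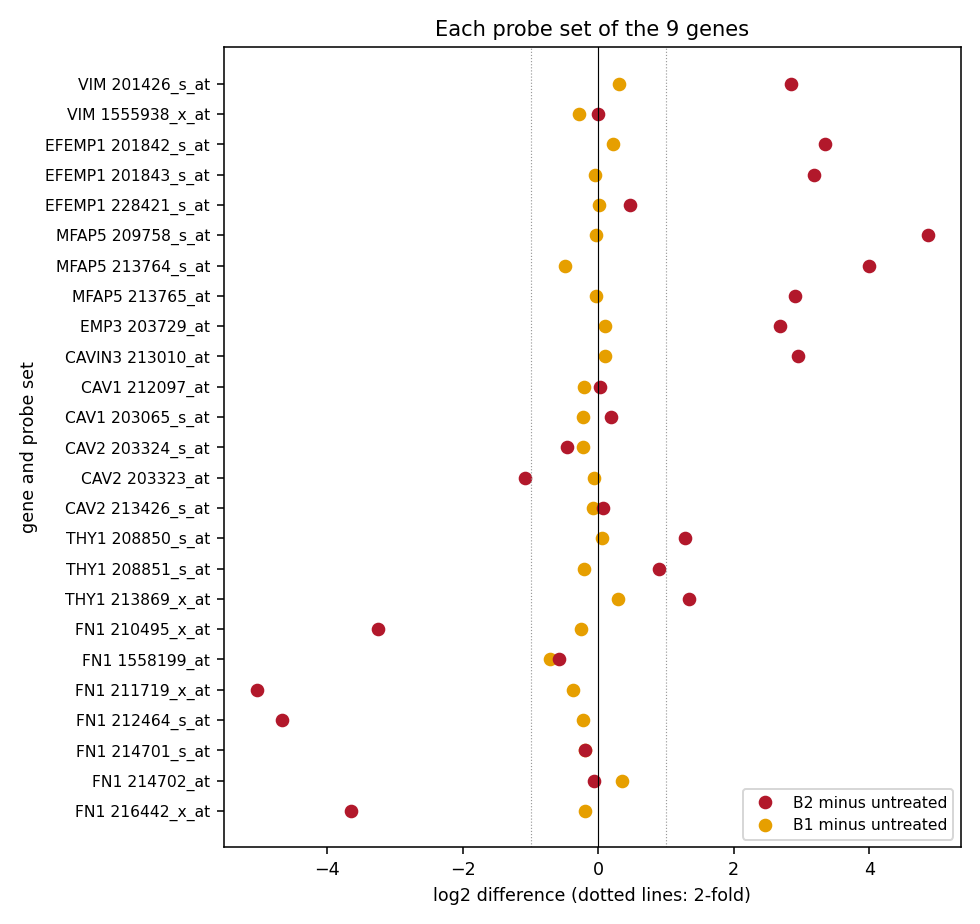
Log2 difference from the untreated array for each of the 25 probe sets, for cisplatin B2 (red) and cisplatin B1 (orange), with 2-fold marked by dotted lines. The B1 points all lie within 2-fold of untreated, from -0.72 to 0.35, while the B2 points run from -5.04 for FN1 to 4.86 for MFAP5, both ends resting on a reading below the array median. In places points overlap and hide the B1 value.

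Counted over the 9 genes, 6 were at least 2-fold higher in B2 than in both other arrays, namely the 5 chosen for it and THY1, and 1, FN1, was at least 2-fold lower. Over all genes these shares were 2.10% higher and 2.41% lower. As the choice of the genes used these values, nothing is read from the counts. Over the probe sets, 10 of 25 were at least 2-fold higher and 5 of 25 lower, against 1.64% and 2.15% of all probe sets. Without B2, 0 of the 9 genes were 2-fold from untreated in either direction, against 1.75% of all genes in B1. The B1 differences of the 9 genes ran from -0.26 to 0.31.

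Cisplatin against untreated, with B1 and B2 as the cisplatin group, gave a log2 difference of 2.42 for MFAP5 (SE 2.45), 1.78 for EFEMP1 (SE 1.58), 1.57 for VIM (SE 1.28) and -1.76 for FN1 (SE 1.51). These averages join 2 unlike arrays: the log2 SD of the cisplatin pair was 3.46 for MFAP5, 2.22 for EFEMP1, 1.79 for VIM and 2.12 for FN1. In limma's test none of the 9 genes passed (adjusted p = 0.97 for each), and 0 of 19775 genes did, a share of 0%. An unadjusted p under 0.05 in this test was found for 565 of the 19775. That share is below the 0.05 which such a threshold lets through without any change. Only the B1 and B2 pair gave the fit its 1 residual degree of freedom. Leaving out B2 took the MFAP5 difference to -0.03, and leaving out B1 took it to 4.86.

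**Figure D3:**
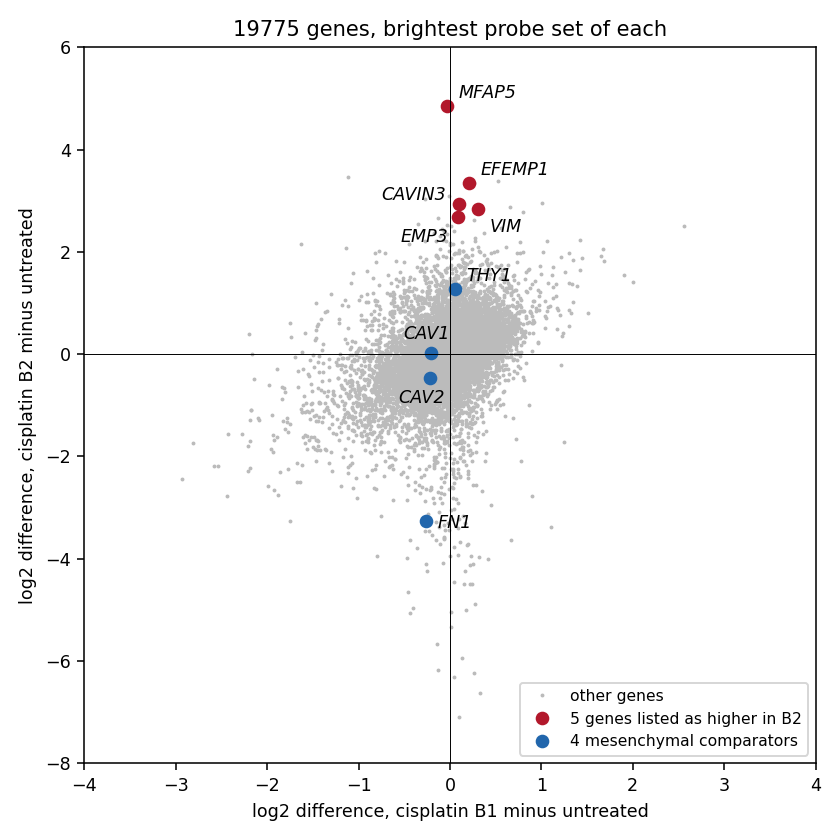
Log2 difference from untreated of cisplatin B2 (vertical) against cisplatin B1 (horizontal) for 19775 genes, each by its brightest probe set. The 5 genes chosen as higher in B2 (red) stand at 2.69 to 4.86 on the vertical axis and between -0.03 and 0.31 on the horizontal axis. Of the comparators (blue), THY1 is at 1.28, CAV1 at 0.03, CAV2 at -0.46 and FN1 at -3.26 for B2.

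Lists of related genes were counted without the 9 genes, which had been chosen for their B2 values or as comparators. Of the 7 other genes of the caveola coat, all measured, 2 were at least 2-fold higher in B2 than in both other arrays and 0 lower, against 2.10% and 2.41% of all genes. These were CAVIN2 (34.2 in B2, 16.3 in B1 and 16.7 in the untreated array, all dim) and EHD2, an ATPase at the neck of caveolae (320 in B2, 135 in B1 and 159 in the untreated array). By the mean of its probe sets EHD2 was under 2-fold, with log2 differences of 0.81 from untreated and 0.83 from B1, which leaves 1 of the 7. PACSIN2, which bends membranes at caveolae, read 813 in B2, 513 in B1 and 946 in the untreated array. The median log2 difference of the 7 was 0.06 for B2 minus untreated, near the 0.05 of all genes.

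Besides EFEMP1 and MFAP5, 18 fibulin, microfibril and elastic fibre genes were measured. Of these, 4 were at least 2-fold higher in B2 than in both other arrays and 1 lower, against 2.10% and 2.41% of all genes. The higher ones were MFAP2, which encodes the related microfibril protein MAGP-1 (609 in B2, 160.0 in B1 and 154 in the untreated array), LOX, a lysyl oxidase that crosslinks elastin and collagen (205 in B2, 29.6 in B1 and 50.7 in the untreated array), FBLN1 (334 in B2, 158 in B1 and 164 in the untreated array) and FBLN5 (55.9 in B2, 27.6 in B1 and 25.1 in the untreated array). FBLN5 was named after its value was seen. LOXL2, another lysyl oxidase, was the lower one, at 46.6 in B2, 233 in B1 and 250.1 in the untreated array. By the mean of all probe sets of a gene, 3 were higher and 0 lower: FBLN1 had a log2 difference of 0.73 from untreated and 0.67 from B1, and LOXL2 one of -0.65 from untreated, against -2.42 by the brightest. LOX stayed over 2-fold, at 1.38 from untreated against 2.02 by the brightest. The median of the 18 was 0.33 for B2 minus untreated and 0.05 for B1 minus untreated.

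The relatives of EMP3 and VIM that were followed were mostly unlike them. EMP1 read 1936 in B2, 1968 in B1 and 2098 in the untreated array, and EMP2 read 578 in B2, 654 in B1 and 750 in the untreated array. PMP22 had no probe set with a single gene symbol. Of 12 non-keratin intermediate filament genes besides VIM, 1 was at least 2-fold higher in B2 than both other arrays, against 2.10% of all genes. It was NEFL, the light neurofilament gene, at 160 in B2, 21.6 in B1 and 27.5 in the untreated array, with both lower readings below the array medians. Its log2 difference from untreated was 2.54 by this probe set and 1.66 by the mean of all its probe sets. PRPH, the peripherin gene, read 187 in B2, 116 in B1 and 89.6 in the untreated array, and the lamin gene LMNB1 read 301 in B2, 356 in B1 and 576 in the untreated array. DES and GFAP were named after their values were seen. DES read 41.4 in B2, 51.9 in B1 and 42.7 in the untreated array, and GFAP 30.5, 32.6 and 28.2.

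Measured receptors of fibronectin and related matrix numbered 9. Among them 1 was at least 2-fold higher in B2 than in both other arrays and 0 lower, against 2.10% and 2.41% of all genes. This was ITGA5, the alpha subunit of the main fibronectin receptor, at 311 in B2, 129 in B1 and 154 in the untreated array, while its ligand gene FN1 was lowest in B2. ITGB5 read 1421 in B2, 777 in B1 and 943 in the untreated array. ITGA4 was dim, at 33.3 in B2, 21.4 in B1 and 23.0 in the untreated array.

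Other mesenchymal genes were split. Of 18 measured, 3 were at least 2-fold higher in B2 than in both other arrays and 1 lower, against 2.10% and 2.41% of all genes. CDH2, the N-cadherin gene, read 617 in B2, 132 in B1 and 166 in the untreated array. TGFBI, a secreted matrix protein, read 6995 in B2, 1644 in B1 and 1832 in the untreated array. The other was the matrix glycoprotein gene TNC, named after its value was seen, at 2003 in B2, 594 in B1 and 808 in the untreated array, but its mean log2 difference over all probe sets was 0.45 from untreated against 1.31 by the brightest. AXL, a receptor tyrosine kinase common in mesenchymal carcinoma cells, was the lower one, at 502 in B2, 2044 in B1 and 2038 in the untreated array. By less than 2-fold, THBS1 and CCN1 were among those lower in B2 than in both other arrays. LGALS1, CCN2 and S100A4 were among those higher, and all of these were named after their values were seen. The list's median was 0.27 for B2 minus untreated, 0.13 for B1 minus untreated and -0.03 for B2 minus B1.

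Of 9 transcription factors of epithelial-mesenchymal transition, 2 were at least 2-fold higher in B2 than in both other arrays and 0 lower. Over all genes these shares were 2.10% and 2.41%. FOXC2 read 220 in B2, 106 in B1 and 94.4 in the untreated array, and TWIST2 read 56.5 in B2, 17.6 in B1 and 25.7 in the untreated array. Both lower TWIST2 readings were below the array medians. Averaged over all probe sets, the log2 differences from untreated were 0.84 for FOXC2 and 0.70 for TWIST2, both under 2-fold. SNAI2, which also marks basal squamous cells, read 1447 in B2, 895 in B1 and 882 in the untreated array. Of 13 collagens 1 was at least 2-fold higher, COL4A2 of the basement membrane (2709 in B2, 788 in B1 and 1200.3 in the untreated array), and its partner COL4A1 read 3858 in B2, 1208 in B1 and 2142 in the untreated array. COL12A1 read 226 in B2, 343 in B1 and 493 in the untreated array.

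**Figure D4:**
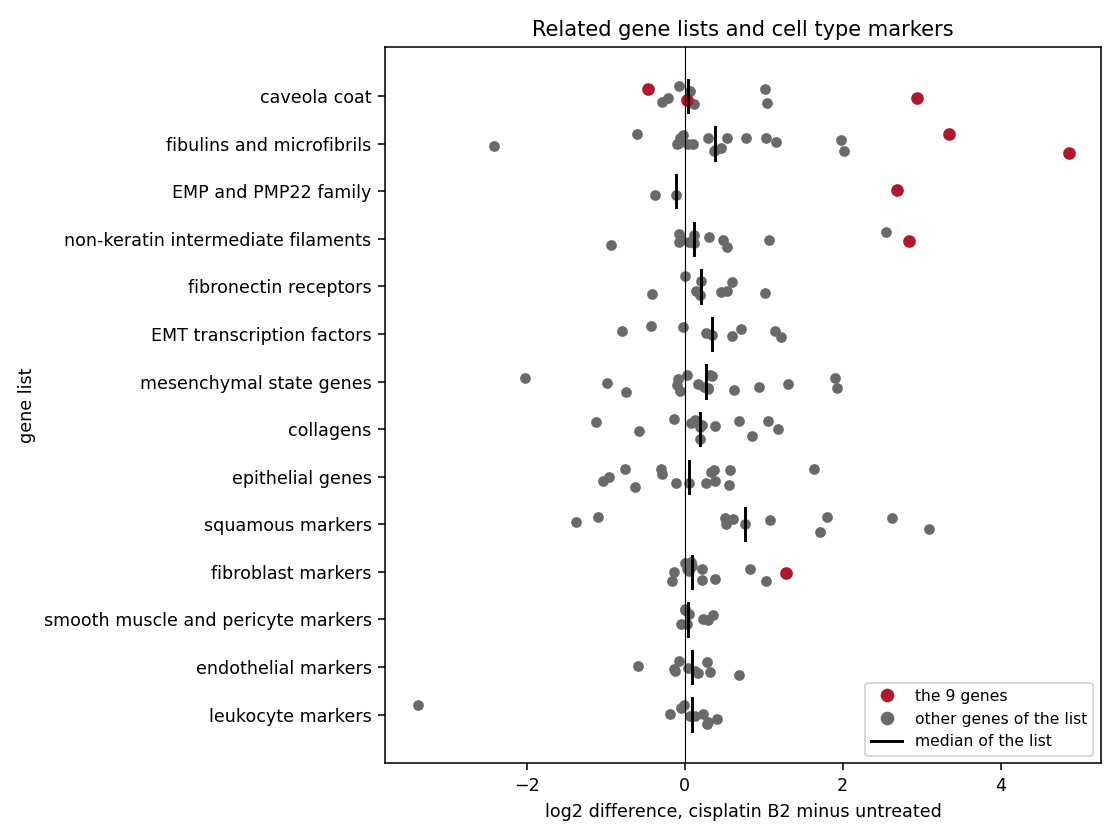
Log2 difference of cisplatin B2 minus untreated for each measured gene of 14 lists (points, with red for the 9 genes and grey for the rest) and the median of each list (black bar). The red points of MFAP5 (4.86) and EFEMP1 (3.35) lead the fibulin and microfibril list, whose median with them is 0.38, and the squamous list has the highest median, 0.76.

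As a set, epithelial genes did not mirror VIM in B2, with a median log2 difference of 0.06 for B2 minus untreated. Of 15 measured, 0 were at least 2-fold higher in B2 than in both other arrays and 1 lower, against 2.10% and 2.41% of all genes. The lower one was KRT8, a keratin of simple epithelium (1418 in B2, 2946 in B1 and 2921 in the untreated array). CDH1, the E-cadherin gene, named after its value was seen, read 2271 in B2, 1965 in B1 and 2186 in the untreated array. ESRP1, an epithelial splicing regulator, read 1215 in B2, 603 in B1 and 821 in the untreated array, and OVOL1 read 404 in B2, 349 in B1 and 130 in the untreated array. By less than 2-fold, KRT18, KRT19, GRHL1 and EPCAM were lower in B2 than in both other arrays. CDH3, CLDN7, DSP and RAB25 were likewise higher, and all of these were named after their values were seen. Also named so, GRHL2 (305 in B2, 198 in B1 and 593 in the untreated array) and OVOL2 (254, 161 and 314) were below untreated in both cisplatin arrays. CLDN4, likewise, was highest in B1 (357 in B2, 501 in B1 and 283 in the untreated array). Squamous markers included several with the pattern of VIM: of 11 measured, 5 were at least 2-fold higher in B2 than in both other arrays and 2 lower, with a median log2 difference of 0.76 for B2 minus untreated and 0.07 for B1 minus untreated. KRT14, a basal keratin, read 2372 in B2, 276 in B1 and 278 in the untreated array, and SPRR1B, a cornified envelope protein, 610.4 in B2, 105 in B1 and 98.6 in the untreated array. KRT5, the basal partner of KRT14, read 4251 in B2, 1345 in B1 and 1217 in the untreated array. The other higher markers were SPRR1A and DSG3 and the lower ones KRT13 and KRT15, all named after their values were seen, as was IVL. Of the 11 measured markers, 9 averaged a log2 value of 6 or more, but so did 10209 of all 19775 genes. The level is therefore no check of the labelled squamous origin. It also averages in B2: SPRR1A, which passed, read 161 in B2, 54.9 in B1 and 49.1 in the untreated array. The 2 markers below the level were KRT13 (25.5 in B2, 68.2 in B1 and 66.0 in the untreated array) and IVL (19.9 in B2, 10.9 in B1 and 13.0 in the untreated array). TP63, KRT6A and KRT17 had no probe set with a single gene symbol. What part the squamous and fibroblast markers have in the differences of the 9 genes was not tested.

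Most markers of other cell types were near the median intensity or dim, with COL1A1, FBLN1 and LCP1 among the exceptions. The 13 fibroblast markers, THY1 included, had a summed intensity of 907 in B2, 602 in B1 and 578 in the untreated array. This gap was set mainly by FBLN1 and THY1. FBLN1 read 334 in B2, 158 in B1 and 164 in the untreated array, and THY1 144, 61.6 and 59.5. Without THY1 the list's median log2 difference was 0.09 for B2 minus untreated and -0.04 for B1 minus untreated. Of the 12 other than THY1, 1 (FBLN1) was at least 2-fold higher in B2 than in both other arrays, against 2.10% of all genes. That was by its brightest probe set, and by the mean of all probe sets 0 were. COL3A1, LUM, POSTN and COL6A3, defining genes of fibroblasts named after their values were seen, read between 7.09 and 10.5 in every array, DCN, likewise, between 34.9 and 35.6, and COL1A1 159 in B2, 155 in B1 and 122 in the untreated array. MMP2 read 76.6 in B2, 40.9 in B1 and 43.2 in the untreated array. None was listed at 0, since the lowest value in the table was 3.03. The summed intensity of 8 smooth muscle and pericyte markers was 313 in B2, 331 in B1 and 294 in the untreated array, and that of 10 endothelial markers 215 in B2, 228 in B1 and 188 in the untreated array, with 0 markers of either list 2-fold higher or lower in B2 than in both. The 10 measured leukocyte markers summed to 374 in B2, 979 in B1 and 1003 in the untreated array, a gap set by LCP1, an actin-bundling protein that carcinoma cells can also express (69.1 in B2, 665 in B1 and 722 in the untreated array).

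The genes nearest in pattern to the 5 higher genes were looked for among the 10200 other genes whose log2 values averaged 6 or more. Likeness was the Euclidean distance, over the 3 arrays, of a gene's log2 differences in B1 and B2 from the median pair of the 5 genes (0.10 for B1 and 2.94 for B2). KRT14 lay nearest, at a distance of 0.19, followed by SPRR1B (0.31), the amino acid transporter gene SLC6A15 (0.36), CLCA2, a chloride channel accessory protein of stratified epithelium (0.44), and LINC00520, a long noncoding RNA (0.44). By the mean of its 5 probe sets, SLC6A15 had a log2 difference of 1.24 for B2 minus untreated, against 2.62 by the one used here. That one read 414 in B2, 80.8 in B1 and 67.4 in the untreated array. CLCA2 read 307 in B2, 36.3 in B1 and 30.2 in the untreated array, and LINC00520 359 in B2, 63.8 in B1 and 63.0 in the untreated array. The level of 6 averages over all 3 arrays, and CLCA2 and LINC00520 reached it only through their B2 reading. The nearest genes thus included the squamous genes KRT14 and SPRR1B. The 5 genes they were set against had been chosen as higher in B2, so their own place in the pattern is no finding.

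Promoter sequences were at hand for 5 of the 9 genes, VIM, EMP3, CAV1, CAV2 and FN1, from RefSeq on GRCh38.p14. The 250 bases before the start site are shown, 5′ to 3′, for 2 genes that were higher in B2 and for FN1, which was lower, so that the promoters of genes with opposite readings can be set side by side. Capitals mark matches on either strand to GC box GGGCGG, CRE TGACGTCA or TATA box TATAAA. They are chr10:17227991-17228240 on the plus strand for VIM, chr19:48325302-48325551 on the plus strand for EMP3 and chr2:215436069-215436318 on the minus strand for FN1.
VIM: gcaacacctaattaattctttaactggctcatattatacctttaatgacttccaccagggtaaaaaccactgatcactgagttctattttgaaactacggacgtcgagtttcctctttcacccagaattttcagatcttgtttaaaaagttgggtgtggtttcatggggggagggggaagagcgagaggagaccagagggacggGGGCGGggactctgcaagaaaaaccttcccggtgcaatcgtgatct
EMP3: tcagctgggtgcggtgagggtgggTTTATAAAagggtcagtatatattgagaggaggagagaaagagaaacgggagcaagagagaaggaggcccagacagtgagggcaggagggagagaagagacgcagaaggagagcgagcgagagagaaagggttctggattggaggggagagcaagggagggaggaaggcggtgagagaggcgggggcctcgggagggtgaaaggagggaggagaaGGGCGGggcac
FN1: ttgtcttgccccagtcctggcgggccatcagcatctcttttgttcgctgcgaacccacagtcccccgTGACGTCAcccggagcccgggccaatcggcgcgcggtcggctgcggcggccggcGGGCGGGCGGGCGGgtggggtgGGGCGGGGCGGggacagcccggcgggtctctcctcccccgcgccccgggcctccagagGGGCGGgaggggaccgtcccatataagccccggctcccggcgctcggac

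The VIM window holds 1 GC box match and 46.0% G and C, the EMP3 window 1 and 59.2%, and the FN1 window 6, some of them overlapping, and 76.4%. The CAV2 windows, of 2 start sites, hold 6 and 3 matches, with 83.2% and 70.0% G and C. Those of CAV1, of 3 start sites, hold 3, 3 and 2, with 63.6%, 63.2% and 73.2%. Both caveolins were within 1.5-fold of untreated by their brightest probe set, so 6 matches were not particular to FN1. A second EMP3 start site in RefSeq, with its window at chr19:48325749-48325998 on the plus strand, has 59.2% G and C and 0 matches to any motif searched. GC boxes occur in 42.6% of the 35116 promoter windows of the same length. The FN1 window has a CRE match, a motif found in 1.65% of windows, from position -183 to -176 relative to the start. EMP3 has overlapping TATA box matches from -226 to -219, far from the start (10.7% of windows hold the letters). The AP-1 motif TGANTCA (6.57% of windows), the E-box CAGGTG bound by ZEB and SNAI factors (17.5%) and the TEAD motif GGAATG (11.9%) were also searched on both strands, and none of the windows of the 5 genes held any of them. A match is a run of letters and not a shown binding site, and a missing one says only that these letters are not in the window.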

How the data were processed

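RNA was measured on 3 arrays: cisplatin B1, cisplatin B2 and untreated. The deposited values are intensities, 1 for each of 54675 probe sets, made with RMA by the authors per the submitters' processing notes. Its version is not given here by any label, and no detection calls were used. All values were above 0 (3.03 to 19645), and log2 was taken with no pseudocount. Control probe sets (62) were left out. Symbols came from the platform annotation, updated by gene number to RefSeq (GRCh38.p14). For each gene the brightest probe set by mean log2 was used.

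Cisplatin was tested against untreated with limma 3.58.1 in R 4.3.3 (lmFit, eBayes) over 19775 genes, with Benjamini-Hochberg adjustment at 0.05. The fit was also run on simulated data in which 200 genes were given a log2 change of 4. It recovered 26.4% of them, with 5.2 false calls per simulation. The test thus misses most changes even of that size, and a count of 0 does not show that no gene changed. P-values then cover only the spread of the cisplatin pair, which may be technical, and assume that untreated cells vary as much. B2 was set against B1 and untreated by size alone (2-fold), with no test. The genes and lists were chosen with earlier results of these data known. Named genes were the 9, up to 3 others of each list with the largest difference of B2 from the mean of B1 and untreated, the 5 nearest in pattern, and the 5 furthest above both arrays in B2. Alternatives were the mean of all probe sets, each probe set alone, quantile normalization, median centring, a pseudocount of 16, a filter at a mean log2 of 6, a variance trend, other folds and each cisplatin array left out. The number of arrays limits the precision.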

Additional observations from a re-analysis of the deposited data

How the results depend on the processing

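With the mean of all probe sets, quantile normalization, median centring or a pseudocount of 16, all 108 recomputed differences of the 9 genes (B2 minus untreated, B1 minus untreated and B2 minus B1) moved by less than the SD of the cisplatin pair, and 0 that were at least 2-fold changed sign. That SD is set by the gap between B1 and B2, so it is wide where B2 stands apart and lets large shifts pass. For VIM, a fall from 2.84 to 1.42 for B2 minus untreated stayed within it. VIM had the widest range for B2 minus untreated, 1.42 to 2.88, since its mean includes a dim probe set. Of 16 other probe sets, 2 took the opposite sign to the brightest for B2 minus untreated (VIM -0.013 and CAV2 0.075), 3 for B2 minus B1 (FN1 0.14 and 0.0070, CAV2 0.16) and 4 for B1 minus untreated (VIM, EFEMP1, THY1 and FN1). Those of VIM and FN1 were dim in all arrays, and that of CAV2 was not. Of the list counts without the 9 genes, those changed by the mean of all probe sets stand with the lists, except the mesenchymal genes (2 higher, against 3) and the collagens (2, against 1), a setting chosen after seeing the data. Without B2 the cisplatin difference of MFAP5 took the opposite sign (-0.031, against 4.86 without B1). The number of the 9 genes at least 2-fold higher in B2 was 6 under those 4 settings and at 1.5-fold and 5 at 4-fold, and leaving out a cisplatin array gave 0 to 6, with 0 when B2 was left out. The settings for this count were chosen after seeing the data. Over all genes 415 were at least 2-fold higher in B2, 276 above a mean log2 of 6, 1111 at 1.5-fold and 38 at 4-fold, which follows from fewer genes or another fold. The limma test called 0 genes under every setting run, with 264 to 677 at an unadjusted p under 0.05. In each setting these were a smaller share of the genes than 0.05. Without either cisplatin array it has no residual degrees of freedom, so no such fit was made. No paired analysis was possible because there was only 1 untreated array for the 2 cisplatin arrays. Signal over background limits MFAP5, THY1, CAVIN3 and the dim probe sets of VIM, EFEMP1 and FN1.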

Other observations

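Apart from the 9 genes, the 5 genes furthest above both other arrays in B2 were ZBED2, KRT14, CLCA2, LINC00973 and TXNIP. ZBED2, a zinc finger transcription factor gene, read 1164 in B2, 48.9 in B1 and 106 in the untreated array, so that B1 was the lowest. TXNIP, the thioredoxin-interacting protein gene, read 1024 in B2, 141 in B1 and 98.3 in the untreated array. LINC00973, a long noncoding RNA, read 82.3 in B2, 8.37 in B1 and 10.1 in the untreated array, from a dim baseline. Together with MFAP5 at rank 1 and EFEMP1 at rank 3, both chosen as higher in B2, these filled the first 7 ranks.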
